A study of Mus musculus with 21 samples.

Results

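Globins are heme proteins that bind oxygen. Myoglobin holds oxygen inside oxidative muscle fibers, hemoglobin carries it in red blood cells as a tetramer of alpha and beta chains, and cytoglobin is a globin of fibroblasts, pericytes and other stromal cells. Red blood cells lose their nucleus before they are released, but the youngest of them still hold transcripts for hemoglobin and for Alas2, the erythroid form of the enzyme that starts heme synthesis, so a piece of muscle that holds blood also yields these transcripts.

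7 of the 40853 genes counted in mouse gastrocnemius are described here. They are Mb (myoglobin), Cygb (cytoglobin), Hba-a1 and Hba-a2 (adult alpha chains), Hbb-bs and Hbb-bt (adult beta chains) and Alas2. They were chosen by gene symbol, with earlier results of these data known, and the counts of the 4 hemoglobin genes and of Alas2 served as a measure of blood in the tissue. Their differences between training groups are therefore given as a description. Calls from the fits of all genes are listed for them beside the share over all genes, and are no test of the 7.

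The medial belly of the gastrocnemius came from 21 female C57BL/6NJ mice that were 10 weeks old when they were assigned to groups, 7 in each group, with 1 poly(A)-selected library per mouse. Active mice ran on a treadmill on 5 days per week for 6 weeks, in sessions of up to 40 min that held a slow warm-up and then running at about 70% of their maximal speed. Activity Reduction mice did the same for 4 weeks and were then inactive for 2 weeks, and Inactive mice had no training. All mice ran a maximal test at the end, and tissue was taken 48 to 72 h later after a fast of up to 6 h. Normalized counts are the deposited read counts divided by the size factor of each library, and they are given as mean ± SD with n = 7 unless stated.

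Library totals were 38482455 to 59785132 counted reads, and each of the 7 Active totals was below each Inactive one. Defining muscle transcripts were abundant, with 1024377 to 1484119 counts of Acta1 (skeletal actin) in each library. The 8 libraries with the lowest numbers in the labels held 798 to 2424 CPM (counts scaled to the library total) of 24 liver transcripts in sum. The other 13 libraries held 173 to 369 CPM. The 8 libraries came from 5 Active, 2 Activity Reduction and 1 Inactive mice, so values are also given within each of these sets of libraries. They are called the 8 liver-rich and the 13 liver-poor libraries below. In bulk tissue, fewer cells of a type and less RNA per cell cannot be told apart.

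The alpha and the beta genes are each a pair of near copies, which limits how well reads can be assigned to 1 gene of a pair. The coding sequences of Hba-a1 (ENSMUSG00000069919.9) and Hba-a2 (ENSMUSG00000069917.9) are both 426 bases long and differ at 1 base, C381T, counted from 1 at the first coding base with the base of Hba-a1 first. Those of Hbb-bs (ENSMUSG00000052305.8) and Hbb-bt (ENSMUSG00000073940.5) are 441 bases long and differ at 1 base, C417T, with the base of Hbb-bs first. Both differences are synonymous, and both lie in exon 3 of 3. The stretches around them are printed because they are the only coding sequence that tells the copies of a pair apart, and the capital marks the base that differs. They were read from GRCm39 at chr11:32234304-32234382 (+) for Hba-a1, chr11:32247121-32247199 (+) for Hba-a2, chr7:103475875-103475938 (−) for Hbb-bs and chr7:103461866-103461929 (−) for Hbb-bt, each 5′ to 3′ on the coding strand.
Hba-a1: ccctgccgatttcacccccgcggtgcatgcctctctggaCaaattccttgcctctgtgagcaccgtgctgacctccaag
Hba-a2: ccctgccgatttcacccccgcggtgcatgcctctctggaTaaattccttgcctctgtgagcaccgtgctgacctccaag
Hbb-bs: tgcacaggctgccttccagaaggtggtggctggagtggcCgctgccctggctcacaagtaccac
Hbb-bt: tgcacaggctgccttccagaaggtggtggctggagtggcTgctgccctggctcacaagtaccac

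Of all 150-base stretches in the canonical transcript, 62.8% of those of Hba-a1 and 72.1% of those of Hba-a2 also occurred in a transcript of the other copy. For Hbb-bs and Hbb-bt the shares were 55.0% and 50.6%. How reads that match both copies were counted is not given in the sources used here, so the split between copies is uncertain and the sums of each pair (Hba and Hbb) and of all 4 genes (hemoglobin) are used where it matters. Mb, Cygb and Alas2 have no such copy, but their exons overlap genes on the opposite strand, and strand use in counting is not given in the sources used here. Apol6 covers 12.5% of the exon bases of Mb and held at most 1689 counts in a library, against at least 61026 of Mb. Gm49540 covers 18.1% of those of Mb and had no row in the counts, so its level is unknown. Gm74438, also without a row, covers 8.0% of those of Hbb-bs on the opposite strand. Prcd covers 13.4% of those of Cygb and held at most 21 counts. Apex2 covers 11.6% of those of Alas2 and held 229 to 465 counts, more than Alas2 itself, which held 69 to 194.

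Mb dominated the globin transcripts of this muscle. Per kilobase of merged exons, its mean normalized count was 35795 ± 3469 (SD, n = 21), which placed it at rank 26 of 14948 tested genes with a known length. Hba-a1 followed at 1429.97 ± 317.7 per kilobase and Hbb-bs at 1012 ± 214. Cygb (147 ± 21.4), Hbb-bt (130.1 ± 32.4) and Hba-a2 (117 ± 43.3) lay close together, within their spread, and Alas2 was lowest at 41.2 ± 10.9 per kilobase. With the length of the canonical transcript instead, a choice made after the data were seen, Hbb-bs (2486 ± 525 per kilobase) stood above Hba-a1 (1881 ± 418), so the order of these 2 genes rests on the length used. In each library there were 16.0 to 41.3 Mb counts for every hemoglobin count.

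The embryonic globins were not detected. Hbb-y, Hbb-bh1, Hbb-bh2 and Hba-x held 0 counts in all 21 libraries, which allows up to 3 counts in each for counting error. The theta-like genes Hbq1a and Hbq1b held at most 8 and 4 counts, and Ngb (neuroglobin) and Adgb (androglobin) at most 8 and 6 counts in a library. None of these genes passed the filter on low counts.

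Mb encodes the oxygen store of the muscle fiber (ENSMUSG00000018893.17, chr15:76899686-76940711, −). Its normalized counts ran from 64644 through a median of 79808 to 82519 in Inactive, from 75516 through 82761 to 101651 in Active and from 72337 through 83601 to 90502 in Activity Reduction mice. The groups overlapped, with 4 Active and 4 Activity Reduction mice above every Inactive mouse and Inactive replicate 1 the lowest of all. The mean was 77224 ± 6698 in Inactive, 85963 ± 9262 in Active and 82404 ± 5843 in Activity Reduction mice. The log2 fold change from the edgeR model was 0.16 (SE 0.0653) for Active against Inactive, 0.10 (SE 0.0653) for Activity Reduction against Inactive and -0.06 (SE 0.0653) for Activity Reduction against Active. Within the 13 liver-poor libraries the log2 ratio of group means for Active against Inactive was 0.23, and within the 8 liver-rich libraries, which held 1 Inactive mouse, it was 0.36. With the library set as a covariate the log2 fold change was 0.27 (SE 0.0592), larger than the 0.16 without it. In the same fit and comparison, Cygb had 0.31 against 0.35 without the covariate, and Alas2 had 0.42 against 0.50.

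Cygb is a globin of stromal cells (ENSMUSG00000020810.7, chr11:116535970-116545406, −), and it stood highest in the Active group. Its normalized counts ran from 298 through a median of 425 to 474 in Inactive, from 438 through 521 to 571 in Active and from 396 through 435 to 469 in Activity Reduction mice. Of the 7 Active mice, 6 lay above every Inactive and every Activity Reduction mouse, and only Active replicate 2 lay among them. The mean was 410.0 ± 60.01 in Inactive, 519.8 ± 48.0 in Active and 434 ± 28.2 in Activity Reduction mice. The log2 fold change was 0.35 (SE 0.0850) for Active against Inactive, 0.08 (SE 0.0850) for Activity Reduction against Inactive and -0.26 (SE 0.0850) for Activity Reduction against Active. The Active mouse had the higher value in 47 of the 49 pairs of an Active and an Inactive mouse, and the Activity Reduction mouse in 3 of 49 pairs with an Active mouse. Within the 13 and the 8 libraries, the log2 ratio of means was 0.35 and 0.27 for Active against Inactive, and -0.29 and -0.18 for Activity Reduction against Active. These comparisons share groups, so they are not independent of each other.

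**Figure D1:**
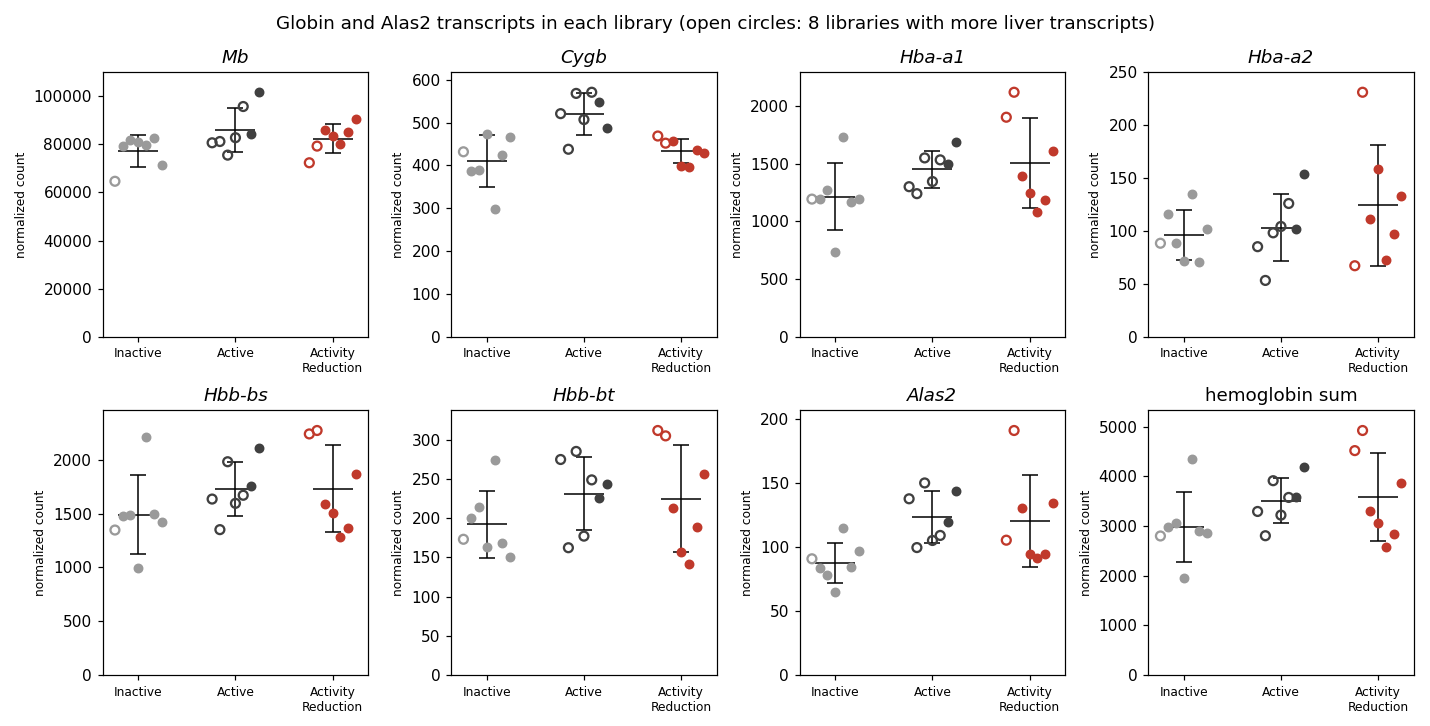
Normalized counts (linear axes from 0) of the 7 genes and of the sum of the 4 hemoglobin genes in each library, by training group. Points are single mice, with open circles for the 8 liver-rich libraries, and the line and bars are the mean and SD of 7 mice. Cygb lies above every Inactive mouse in 6 of 7 Active mice, and the open circles of the Activity Reduction group carry its highest hemoglobin sums.

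Hba-a1, the main alpha transcript in these counts, ran from 731 through a median of 1193 to 1729 in Inactive, from 1239.7 through 1493 to 1686 in Active and from 1084 through 1389.7 to 2118 in Activity Reduction mice. Hbb-bs, the main beta transcript, ran from 993 through 1479 to 2214 in Inactive, from 1351 through 1671 to 2115 in Active and from 1279.9 through 1591 to 2273 in Activity Reduction mice. The groups overlapped for both genes, and the same library, Inactive replicate 4, was lowest for both. Hba-a2 ranged from 53.2 to 231 and Hbb-bt from 141 to 311.7 over the 21 libraries, also with overlapping groups. Hba-a2 made up 7.19% ± 1.77 (SD, n = 21) of the alpha counts and Hbb-bt 11.5% ± 1.38 of the beta counts, shares that the counting of shared reads can set.

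The hemoglobin sum was 2991 ± 705 in Inactive, 3513 ± 460.1 in Active and 3584 ± 884 in Activity Reduction mice. It ran from 1959 through a median of 2908 to 4352 in Inactive, from 2807 through 3578 to 4198 in Active and from 2577 through 3306 to 4927 in Activity Reduction mice. The 2 highest libraries of all were Activity Reduction replicates 2 and 1, at 4927 and 4521, and both were liver-rich. The log2 fold changes for Active against Inactive were 0.27 (SE 0.151) for Hba-a1, 0.11 (SE 0.248) for Hba-a2, 0.22 (SE 0.147) for Hbb-bs and 0.28 (SE 0.179) for Hbb-bt. For Activity Reduction against Inactive they were 0.32, 0.38, 0.22 and 0.23 in the same order of genes, with SE 0.147 to 0.247. Single libraries moved these values. Without Activity Reduction replicate 2 the log2 fold change of Hba-a2 was 0.15, that of Hbb-bs 0.14 and that of Hbb-bt 0.14. Without Activity Reduction replicate 1 that of Hbb-bs was 0.14 and that of Hbb-bt 0.13. For Hbb-bs it was 0.13 without Inactive replicate 4 and 0.34 without Inactive replicate 5. For Active against Inactive, leaving out Inactive replicate 4 gave 0.17 for Hba-a1, 0.14 for Hbb-bs and 0.05 for Hba-a2, and leaving out Inactive replicate 5 gave 0.34 for Hbb-bs.

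The direction of the hemoglobin difference between the trained groups turned with the set of libraries. For Activity Reduction against Active, the log2 ratio of mean hemoglobin sums was -0.31 within the 13 liver-poor libraries (3128 ± 491 in 5 mice and 3888 ± 439 in 2 mice) and 0.49 within the 8 liver-rich libraries (4724 ± 286 in 2 mice and 3363 ± 414 in 5 mice). For Activity Reduction against Inactive it was 0.05 and 0.75. For Active against Inactive it was 0.36 and 0.26. The liver-rich set held 1 Inactive and 2 Activity Reduction mice, so its values rest on few animals. With the library set as a covariate in the edgeR model, values for Active against Inactive were 0.17 for Hba-a1, 0.16 for Hbb-bs and 0.14 for Hbb-bt. These were below the 0.27, 0.22 and 0.28 without the covariate, while Hba-a2 had 0.14 against 0.11.

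Alas2 (ENSMUSG00000025270.15, chrX:149330371-149353634, +) was the least abundant of the genes per kilobase, and in the edgeR model of all libraries without a covariate it had the largest log2 fold change among them in both comparisons with the Inactive group. Its normalized counts ran from 64.6 through a median of 84.9 to 115 in Inactive, from 99.8 through 119 to 150.3 in Active and from 91.6 through 106 to 191 in Activity Reduction mice. The groups overlapped, but 6 of 7 Inactive mice lay below every Active mouse, and the exception, Inactive replicate 5, had the highest hemoglobin sum of its group. The mean was 87.8 ± 15.8 in Inactive, 124 ± 20.3 in Active and 120.4 ± 35.9 in Activity Reduction mice. The log2 fold change was 0.50 (SE 0.164) for Active against Inactive, 0.46 (SE 0.163) for Activity Reduction against Inactive and -0.04 (SE 0.162) for Activity Reduction against Active. Within the 13 and the 8 libraries, the log2 ratio of means was 0.60 and 0.41 for Active against Inactive, 0.32 and 0.71 for Activity Reduction against Inactive, and -0.27 and 0.30 for Activity Reduction against Active. There were 2.98 ± 0.333 Alas2 counts per 100 hemoglobin counts in Inactive, 3.52 ± 0.380 in Active and 3.38 ± 0.548 in Activity Reduction mice. With the hemoglobin sum as a covariate, the log2 fold change of Alas2 was 0.30 for Active against Inactive, below the 0.38 of Cygb in the same fit, and 0.24 for Activity Reduction against Inactive. Within the 8 liver-rich libraries, the log2 ratio of means for Activity Reduction against Inactive was larger for Hbb-bt (0.83) than for Alas2 (0.71).

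**Figure D2:**
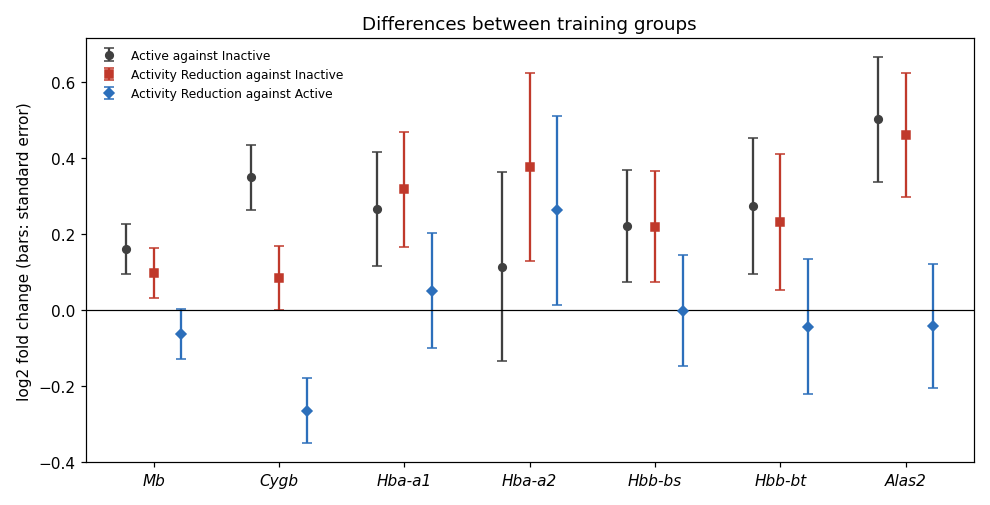
Log2 fold changes (vertical axis) of the 7 genes in the 3 comparisons of training groups, from the edgeR model of 21 libraries, with bars of 1 standard error. All 7 values lie above 0 in both comparisons with the Inactive group, where the median over all tested genes was 0.01 in each. The hemoglobin genes and Alas2 tended to move together, so these are not 7 separate observations. In a fit of the 13 liver-poor libraries, not shown, Hbb-bt was -0.03 for Activity Reduction against Inactive. The bars of Hba-a2 are the longest, up to 0.248.

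A gene was called when its p-value from edgeR, adjusted by Benjamini-Hochberg over all 16129 tested genes, was under 0.05 and its log2 fold change over 0.25 in either direction. All 7 genes passed the filter on low counts. Of them, 0 were called for Active against Inactive, where 0% of all tested genes were called, 0 for Activity Reduction against Inactive (0.0124% of all), and 0 for Activity Reduction against Active (0% of all). At an unadjusted p under 0.05, edgeR counted 3, 2 and 1 of the 7 genes in these comparisons, and 1754, 1247 and 2149 of all genes. DESeq2, fitted on the 2 groups compared, called Cygb for Active against Inactive (0.553% of all genes called) and for Activity Reduction against Active (0.906%), and none of the 7 for Activity Reduction against Inactive (0.302%). Fitted on all 3 groups, DESeq2 called Cygb for Active against Inactive only. The genes were chosen with these contrasts known. These calls and counts are therefore no test of the 7 genes, and those of Cygb lend no support to a difference.

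The library sets were not used to choose the genes, so the difference between them was tested, with a term for the training group in the edgeR model. Mb was lower in the 8 liver-rich libraries than in the other 13 by a log2 fold change of -0.19 (SE 0.0504, edgeR adjusted p = 0.0280), with mean normalized counts of 79008 ± 8974 and 83621 ± 7011. The fold was under the 0.25 needed for a call. By adjusted p alone, a background added after the data were seen, 4.58% of all tested genes passed, and 4.2% with the fold threshold. Without the term for training group, the log2 fold change of Mb was -0.07 (edgeR adjusted p = 0.650). Leaving out Inactive replicate 1, Active replicate 7 or Activity Reduction replicate 1 also brought the edgeR adjusted p of Mb above the threshold, to 0.174, 0.167 and 0.0926. For the other 6 genes the edgeR adjusted p was 0.625 to 0.978. The hemoglobin sum was 3633 ± 775 in the liver-rich and 3197 ± 662 in the liver-poor libraries (exact permutation test, two-sided, p = 0.189).

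Within groups, Mb was the steadiest of the genes and the hemoglobins varied more. The SD of log2 normalized counts within groups was 0.13 for Mb and 0.16 for Cygb, below the median of 0.19 over all tested genes. It was 0.30 for the hemoglobin sum and for Alas2, and 0.49 for Hba-a2, larger than in 79.3% of tested genes. Counting error alone gives an SD of about 0.02 for the hemoglobin sum and 0.14 for Alas2 and for Hba-a2. With 1 library per mouse, differences between mice, dissection and library preparation cannot be told apart in the spread.

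The alpha and beta transcripts moved together from mouse to mouse. In the 13 liver-poor libraries, the Hba and Hbb sums had a Pearson r of 0.970 and a Spearman rho of 0.940 on log2 normalized counts (permutation test, two-sided, p = 1e-05 for each, the smallest that 100000 permutations can give, adjusted p = 0.00012 over 12 relations). Without the 2 libraries farthest from the median r was 0.969. In the 8 liver-rich libraries r was 0.922 (exact permutation test, adjusted p = 0.00377) and rho was 0.929 (exact permutation test, adjusted p = 0.0134). Without the 2 farthest libraries r was 0.865 (exact permutation test, adjusted p = 0.167, with 6 libraries left), and centred on group means r was 0.717 (exact permutation test, adjusted p = 0.0608), so the call in this set was lost under both. The ratio of Hbb to Hba counts was 1.25 ± 0.0846 (SD, n = 21) and stayed between 1.097 and 1.44, while the hemoglobin sum itself ran from 1959 to 4927.

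Alas2 followed hemoglobin less tightly. In the 13 liver-poor libraries r was 0.847 and rho 0.720 between Alas2 and the hemoglobin sum (permutation test, adjusted p = 0.00204 and 0.0282). Without the 2 farthest libraries r was 0.698 (permutation adjusted p = 0.0985), which ended the call. Centred on the group means r was 0.877. In the 8 liver-rich libraries r was 0.697 (exact permutation test, adjusted p = 0.168) and rho was 0.833 (exact permutation test, adjusted p = 0.0461). Without the 2 farthest libraries r was 0.284. The hemoglobin genes and Alas2 were chosen together as a measure of blood, with earlier results of these data known. The p-values of their relations, also that of Hba with Hbb, are therefore given as a description.

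**Figure D3:**
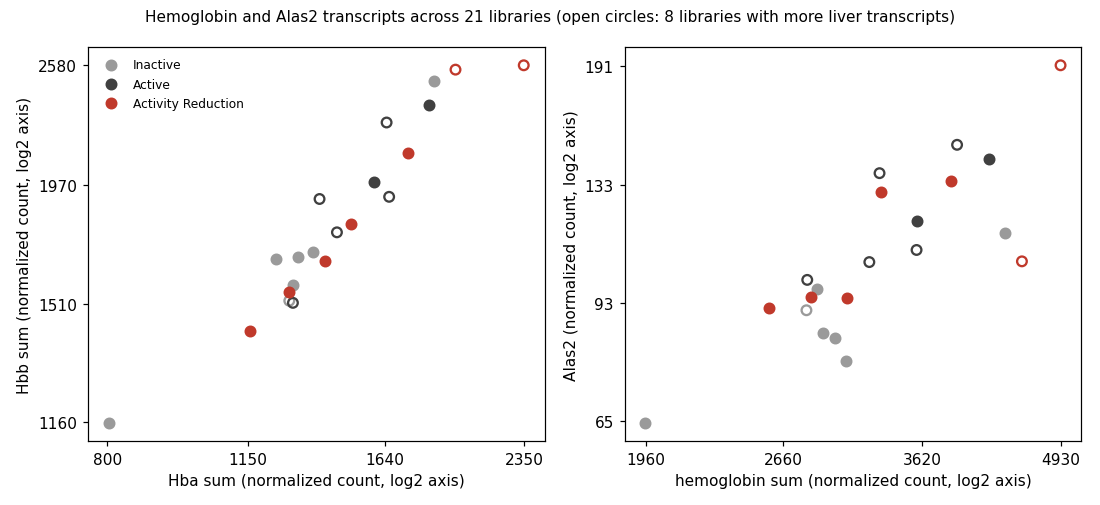
Hbb sum against Hba sum (left) and Alas2 against the hemoglobin sum (right), as normalized counts on log2 axes, with 1 point per library, colored by training group and open for the 8 liver-rich libraries. The Hba and Hbb points form a narrow band from Inactive replicate 4 (lowest) to Activity Reduction replicate 2 (highest), and the Alas2 points scatter more widely around theirs.

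For Mb and Cygb, no relation with hemoglobin passed the threshold without centring on group means. For Mb and the hemoglobin sum r was 0.488 in the 13 libraries (permutation test, adjusted p = 0.209) and 0.0735 in the 8 libraries (exact permutation test, adjusted p = 0.928). For Cygb and the hemoglobin sum r was -0.206 (permutation test, adjusted p = 0.747) and 0.165 (exact permutation test, adjusted p = 0.912). Centred on group means, r for Cygb was -0.680 in the 13 libraries (permutation test, adjusted p = 0.0527) and 0.894 in the 8 libraries (exact permutation test, adjusted p = 0.0272), so the sign differed between the sets, and the difference was not tested. Mb and Cygb had r = 0.271 (permutation test, adjusted p = 0.595) and 0.583 (exact permutation test, adjusted p = 0.258). The hemoglobin sum and the 24 liver transcripts had r = 0.0633 (permutation test, adjusted p = 0.928) and 0.0441 (exact permutation test, adjusted p = 0.928) within the sets. With 8 to 13 libraries, weaker relations than these may have been missed.

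Other blood transcripts differed in level. The leukocyte marker Ptprc held 34 to 159 counts and the platelet marker Pf4 held 28 to 64 counts in a library. Others of these lists were lower, with 0 to 10 counts of S100a8 and 0 to 13 of Cd79a (leukocytes) and 0 to 22 of Ppbp (platelets). Whether these counts came from cells in blood or in the tissue was not tested. Of 33 erythroid genes, 32 had a row and 18 passed the filter, and 0 were called in any comparison of training groups by edgeR or DESeq2, with 3, 1 and 0 at an unadjusted edgeR p under 0.05. Defining markers of red cell precursors were at or near 0. Ahsp (the alpha-hemoglobin stabilizing protein) held 0 counts in 20 of 21 libraries and at most 2, Slc4a1 (band 3, the anion exchanger) 0 to 26, and Klf1 (an erythroid transcription factor) 2 to 17 counts. The summed level of the list was 1302 to 1424 CPM in the Inactive, 1283 to 1376 CPM in the Active and 1265 to 1336 CPM in the Activity Reduction group, and includes genes that muscle also expresses. Of 18 leukocyte markers 8 passed the filter, and their summed level was 18.3 to 49.0 CPM, 21.7 to 42.3 CPM and 12.3 to 44.0 CPM in the same order of groups. Of 10 platelet markers 5 passed, with 11.5 to 15.3, 11.5 to 14.5 and 11.3 to 15.5 CPM. Both lists overlapped between groups. Of 10 endothelial markers, all tested, edgeR called 0, with 3, 0 and 3 at an unadjusted p under 0.05, and DESeq2 called Kdr (a VEGF receptor), which was lower for Activity Reduction against Active. Their summed level was 282 to 344 CPM in Inactive, 306.8 to 394 CPM in Active and 274 to 325.1 CPM in Activity Reduction mice. The part of blood content in the values of hemoglobin and Alas2 was not tested beyond these levels.

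Genes whose pattern was most like each member were ranked by Pearson r over the 21 libraries, as a description, since libraries share depth and group. For Mb they were Ckmt2 (sarcomeric mitochondrial creatine kinase, r = 0.857), Myh2 (myosin heavy chain IIa, 0.782), Fxyd6 (0.777), Wfs1 (0.769) and Fndc5 (0.750). For Cygb they were Ltbp4 (a latent TGF-beta binding protein of the extracellular matrix, r = 0.847), Ssc5d (0.839), Mrc2 (a collagen receptor, 0.836), Tnfaip6 (a hyaluronan-binding protein, 0.834) and Entpd2 (an ectonucleotidase, 0.832). For Alas2 they were Erf (0.761), Rell1 (0.732), Pitpnm2 (0.727), Zfp853 (0.724) and Ddhd1 (0.707), and both Hba-a1 (0.806) and Hbb-bs (0.787) were closer to Alas2 than any of the 16122 other tested genes. For the hemoglobin sum they were Pde4b (0.743), Mef2d (0.700), Erf (0.693) and Zfp853 (0.686). In the 13 liver-poor libraries alone, r was 0.921 for Mb with Ckmt2 and 0.876 for Cygb with Ltbp4.

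Most stromal markers had log2 fold changes in the same direction as that of Cygb in both comparisons that hold the Active group. For Activity Reduction against Inactive, 7 of the 20 markers below were positive (median -0.09), where the value of Cygb was 0.08. Of 20 fibroblast and pericyte markers, all tested, 18 had a positive log2 fold change for Active against Inactive (median 0.20, against 0.01 over all tested genes) and 3 for Activity Reduction against Active (median -0.32, against -0.00). By edgeR 0 were called in either, with 4 and 9 at an unadjusted p under 0.05, and DESeq2 on the 2 groups called 0 and 2 of them (Col1a1 and Col1a2, both collagen I chains, both lower in the Activity Reduction group). Dpt (dermatopontin) had log2 fold changes of 0.29 (SE 0.127) and -0.37 (SE 0.127), and Mcam 0.18 (SE 0.0814) and -0.25 (SE 0.0815), in the same order of comparisons. The summed level of the 20 markers ran from 1034 through a median of 1343 to 1433 CPM in the Inactive group. It ran from 1240.1 through 1339 to 1699.7 CPM in the Active and from 1069.7 through 1271 to 1297 CPM in the Activity Reduction group. The median of the summed level was thus not higher in the Active than in the Inactive group. The part of stromal cell content in the values of Cygb was not tested.

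Mb is known to be expressed with slow and oxidative fiber markers, most of which had negative log2 fold changes where that of Mb was positive. The list mixes genes of slow fibers with markers of other oxidative fibers such as Myh2, which were not separated. Of 15 tested, 5 had a positive log2 fold change for Active against Inactive (median -0.11) and 2 for Activity Reduction against Inactive (median -0.27). The list also moved with the library sets, with 0 of 15 positive in the liver-rich against the liver-poor libraries (median -0.27) and 0 called by edgeR, and 5 Active but 1 Inactive mice were liver-rich. The part of the library sets in these medians was not tested. By edgeR 0 were called, with 0 and 8 at an unadjusted p under 0.05, and DESeq2 also called 0 in these comparisons. For Activity Reduction against Active, edgeR called 0 with 2 at an unadjusted p under 0.05, and DESeq2 called Casq2 (the slow calsequestrin), which was lower. Casq2 and Csrp3 (a muscle LIM protein) had log2 fold changes of 0.16 (SE 0.105) and 0.32 (SE 0.207) for Active against Inactive. They were named for the smallest edgeR p in that comparison and are among its 5 positive genes, so they do not represent the list. Of 17 tested regulators linked to Mb transcription (the calcineurin, NFAT, MEF2, PGC-1 and ERR families), edgeR called 0 in each comparison, with 0, 5 and 5 at an unadjusted p under 0.05. DESeq2 called Esrrg (an estrogen-related receptor), which was lower in the Activity Reduction than in the Inactive group. For Active against Inactive the log2 fold change was 0.13 (SE 0.0628) for Esrra and -0.19 (SE 0.0931) for Esrrg.

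**Figure D4:**
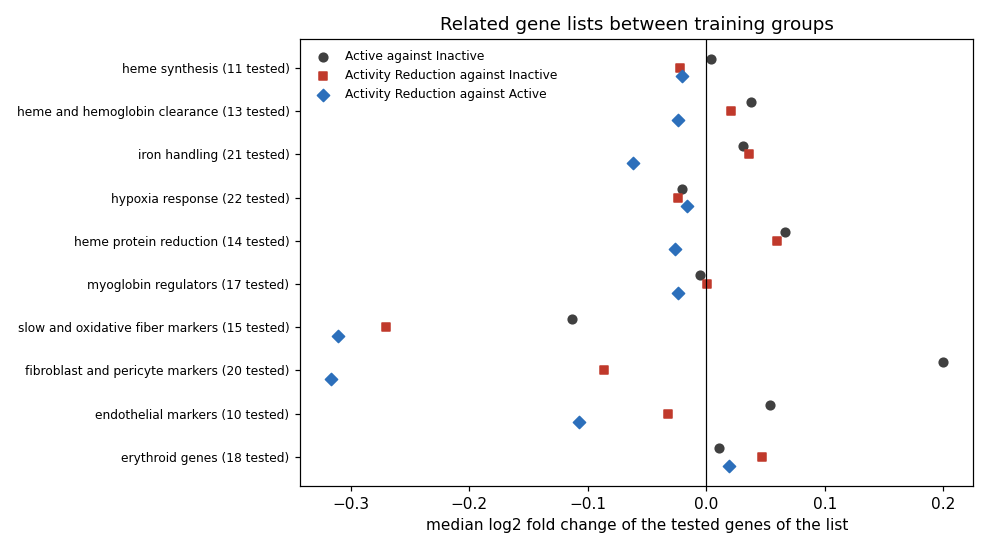
Median log2 fold change (horizontal axis) of the tested genes of 10 related gene lists in the 3 comparisons of training groups. Fibroblast and pericyte markers have the highest median for Active against Inactive (0.20), and they and the slow fiber markers have the lowest for Activity Reduction against Active (-0.32 and -0.31).

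The pathways that make and remove heme had medians near 0. For Active against Inactive, the median log2 fold change was 0.00 over 11 heme synthesis genes, 0.04 over 13 genes of heme and hemoglobin clearance, 0.03 over 21 genes of iron handling, -0.02 over 22 genes of the hypoxia response and 0.07 over 14 genes of heme protein reduction. By edgeR 0 genes of these lists were called in any comparison of training groups. At an unadjusted p under 0.05 for Active against Inactive there were 1, 4, 0, 0 and 2 of them. Fitted on the 2 groups compared, DESeq2 called only Lrp1 (a receptor for heme bound to hemopexin), for Activity Reduction against Active, where it was lower. Fitted on all 3 groups, DESeq2 called 0 genes of these lists. Lrp1 had normalized counts of 2519 in the Inactive, 3207 in the Active and 2425 in the Activity Reduction group, with a log2 fold change of 0.35 (SE 0.126) for Active against Inactive. Alas1, the form of the enzyme used outside red cells, had a log2 fold change of 0.16 (SE 0.0576) and Uros, a later enzyme of the pathway, one of -0.10 (SE 0.0524). P4ha1 and Bnip3, both induced by low oxygen, had -0.13 (SE 0.0613) and -0.12 (SE 0.0732).

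Several carriers of heme, hemoglobin and iron are made mainly by the liver and differed between the library sets. Hp and Hpx are among the 24 liver transcripts by which the sets are described, so their values restate that description. Earlier results of these data, which showed liver transcripts in the 8 libraries, led to the division. Other genes made by the liver, such as Trf, Hamp and Tfr2, were therefore likely to differ in the same direction. Higher in the 8 liver-rich libraries by edgeR were Hp (haptoglobin, which binds free hemoglobin, log2 fold change 2.21), Hpx (hemopexin, which binds heme, 2.63), Trf (transferrin, 2.25), Hamp (hepcidin, 2.20) and Tfr2 (transferrin receptor 2, 2.88), as were Ftl1 (ferritin light chain, 0.39), Blvrb (a biliverdin reductase, 0.56), Cyb5a (0.51), Por (0.57), Cat (0.34) and Gpx1 (0.53). Outside the 24 liver transcripts, the edgeR adjusted p-values of these genes were at most 0.00303. They are given as a description, since the division was not chosen independently of liver transcripts. For Active against Inactive, Hpx had a log2 fold change of 1.40 (SE 0.636), Trf 1.08 (SE 0.533) and Hamp 1.101 (SE 0.538), and 5 of the 7 Active mice but 1 of the 7 Inactive mice were liver-rich. Among the 7 genes described here, 0 were called in this contrast by edgeR.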

How the data were processed

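Gastrocnemius RNA of 21 female mice was sequenced after poly(A) selection. Per the labels and the study's methods, the authors used fastp for trimming, RNA STAR for alignment to GRCm39 and featureCounts for counting. The deposited values are raw read counts for 40853 genes. The deposited table of normalized counts was identical to it in all 857913 values and was not used. Groups came from the labels.

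Counts were divided by DESeq2 (version 1.42.0) size factors (0.752 to 1.22) for normalized counts. Library totals of 38482455 to 59785132 leave little counting error except in genes with few counts. All genes were tested with edgeR (version 4.0.16) quasi-likelihood fits of 21 libraries after TMM normalization and edgeR's filter on low counts. DESeq2 was an alternative, and its adjusted p-values given as NA stayed NA. The edgeR script was tested on simulated data. Relations used log2(normalized count + 1), with permutation tests and Benjamini-Hochberg adjustment over 12 relations. Sequences, lengths and overlaps came from GENCODE vM39 on GRCm39. The library sets were divided by the number in the sample labels, whose meaning the labels do not give. Other settings, including fits without each library, are given in the closing section.

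The 7 genes and all gene lists were chosen with earlier results of these data known. Beside the 7 genes, genes called in each list were named, or else the 2 with the smallest edgeR p for Active against Inactive in 7 lists, and the 5 genes most correlated with Mb, Cygb, Alas2 and the hemoglobin sum. A gene that these rules would name is not reported here. Genes that only DESeq2 called were named after their values were seen.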

Additional observations from a re-analysis of the deposited data

Results flagged for a closer look

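In the Inactive group, replicate 5 stood far above the other 6 mice for Hbb-bs, with a normalized count of 2214 against 993 to 1500.3 in the others, and for the Hbb sum, with 2488. Its gap to the nearest mouse was a larger part of the group's range than Dixon's 95% critical value for 7 values. 45 groups of values were examined in this way, and chance flags about 1 in 20 groups. These 2 values rest on the same mouse and share the Hbb-bs counts. The same mouse had the highest Hba-a1 (1729), Hbb-bt (274) and Alas2 (115) values and the lowest Cygb value (298) of its group.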

How the results depend on the processing

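The number of called genes moved most with the tool. DESeq2 on 3 groups called 57 genes for Active against Inactive, 23 for Activity Reduction against Inactive and 117 for Activity Reduction against Active, and DESeq2 on the 2 groups compared called 75, 44 and 132, against 0, 2 and 0 by edgeR. For Activity Reduction against Inactive, edgeR called 0 with DESeq2 size factors, 1 with the library set as a covariate, 0 in the 13 libraries alone and 6 with the hemoglobin sum as a covariate. With DESeq2 size factors edgeR called 1 for Activity Reduction against Active. Leaving out 1 library at a time gave 0 to 1, 0 to 6 and 0 to 9 called genes in the 3 comparisons, with 6 without Active replicate 3 and 9 without Activity Reduction replicate 7. The cause was not tested.

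With a replicate block, edgeR called 0, 4 and 0 genes. Samples that share a replicate number did not deviate together (r from -0.234 to 0.439, 7 of 21 pairs over 0.1), and 3 of 21 libraries were closest to one of their own number.

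For the 7 genes, 11 of 639 alternative fold changes moved by more than 1 SD. Leaving out Active replicate 7 turned the sign of Hba-a2 for Active against Inactive, to -0.01. For Activity Reduction against Active, where the values are near 0, leaving out 1 library also turned the sign of Hba-a1 (to -0.05 without Activity Reduction replicate 2 and -0.02 without replicate 1), of Hbb-bt (in 4 cases, up to 0.05) and of Alas2 (in 4 cases, up to 0.02), both farthest without Activity Reduction replicate 5, and the range for Hbb-bs ran from -0.08 to 0.06. Centred on group means, the relation of Hba with Hbb in the 8 libraries was r = 0.717 (exact permutation test, adjusted p = 0.0608) and that of Cygb with hemoglobin was 0.894 (exact permutation test, adjusted p = 0.0272), against -0.680 (permutation adjusted p = 0.0527) in the 13 libraries. Without the 2 farthest libraries, the relation of Hba with Hbb in the 8 libraries was 0.865 and that of Alas2 with hemoglobin in the 13 libraries 0.698, both with an adjusted p over the threshold. No comparison of all genes within the 8 libraries was fitted, since they held 1 Inactive mouse.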
